A study of Mus musculus with 2 samples.

Results

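The NRF2 pathway is described here through 10 genes: the transcription factor Nfe2l2, its inhibitor Keap1, and 8 enzymes or other targets, Hmox1, Nqo1, Gclc, Gclm, Txnrd1, Srxn1, Prdx1 and Osgin1. They were taken from a fixed list of names, and a probe counted as theirs when its RefSeq accession belonged to one of the genes. This gave 14 probes for 10 genes, of 25091 probes for 17302 genes that could be named. Nfe2l2 and Osgin1 had 2 probes each, Srxn1 had 3, and each other gene had 1. No probe was set aside.

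The RNA came from mouse hybridoma cells labelled as strain 1H5F9. Hybridomas are lines that secrete an antibody and descend from the fusion of a B cell with a myeloma cell. One sample received no BSP-II (0 µg/ml) and the other received 5 µg/ml of BSP-II, a bursal peptide, for 4 h. Both were kept in RPMI 1640 with 20% heat-inactivated fetal bovine serum at 37 °C and 5% CO2. Each dose is represented by 1 single-colour array with its RNA labelled in Cy3, and both arrays lie on 1 slide. The cells are 1 line, and with 1 array per dose there are no replicates and no test could be made. All statements describe these 2 arrays.

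NRF2, the protein of Nfe2l2, is held in the cytoplasm by KEAP1, which hands it to a ubiquitin ligase for destruction. Oxidants and electrophiles modify KEAP1, and NRF2 then enters the nucleus, pairs with a small MAF protein and binds antioxidant response elements. Its targets make glutathione, reduce thioredoxin, repair peroxiredoxins, detoxify quinones and break down haem. Because NRF2 is controlled largely through the stability of the protein, the RNA of its targets is the usual readout of its activity. Cells that secrete antibody form many disulfide bonds, a process that produces peroxide.

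The core of an antioxidant response element can be written TGACNNNGC. It was searched for on both strands of the windows from 250 bases before to 50 bases after each start site in RefSeq's mouse build GRCm38.p6. Windows were listed for 8 of the 10 genes, 10 windows in all because Txnrd1 has 3. Hmox1 and Gclc had none in the table and were not searched. The core was found in 5 of the 10 windows (50%), 1 each for Nfe2l2, Srxn1, Gclm, Prdx1 and Txnrd1. Of all 32851 windows 12.4% held it, and of the 134 windows of the other pathway genes described below 15.7%. The stretches with the matches are shown because they are a feature of 5 members that the arrays did not measure. Each is written in the direction of its gene, with the match in capitals. A match that begins with GC is the core read from the opposite strand.

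Nfe2l2, chr2:75704870-75704913, minus strand: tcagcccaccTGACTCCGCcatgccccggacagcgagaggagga
Srxn1, chr2:152105542-152105570, plus strand: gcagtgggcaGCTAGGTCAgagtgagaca
Gclm, chr3:122245398-122245456, plus strand: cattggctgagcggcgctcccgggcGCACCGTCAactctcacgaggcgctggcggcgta
Prdx1, chr4:116685441-116685499, plus strand: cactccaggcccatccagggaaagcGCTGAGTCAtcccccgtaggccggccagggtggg
Txnrd1, chr10:82859089-82859147, plus strand: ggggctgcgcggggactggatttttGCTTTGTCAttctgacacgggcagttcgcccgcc

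The match of Prdx1 holds TGAGTCA, which is also the recognition sequence of the factor AP-1, so the 2 motifs overlap there. The match of Srxn1 lies after the start site, at positions 28 to 36. The others lie before it, from 240 bases upstream in Nfe2l2 to 84 bases upstream in Txnrd1. No window of Keap1, Nqo1 or Osgin1 held the core within these limits.

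Hmox1 and Srxn1 stood highest on the BSP-II array, Txnrd1 and Gclm were slightly higher, and Nqo1 was at the edge of what the arrays detect. Nfe2l2 itself lay at the middle of all genes. Gclc was lower, Keap1 and Prdx1 were slightly lower, and Osgin1 was lower by one of its probes. The differences of Gclm and Prdx1 were smaller than the spot error described below. Differences are log2 values, BSP-II minus untreated, after each array was divided by its own 75th percentile, 309.1 on the untreated and 356.3 on the BSP-II array. This step takes 0.205 off the log2 ratio of the signals as printed. Each difference carries the error that the scanner software gives for the spots, between 0.20 and 0.31 for the member probes. It covers the spots only, not the variation between cultures or labelling reactions. It is no spread measured over repeats, since each member probe has 1 spot per array. For bright probes it is nearly a fixed share of the signal, and it came to 0.204 for Keap1 and Prdx1 alike.

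Over the 10 genes, each taken at its brightest probe, the median difference was 0.05, against −0.03 for all 12852 genes detected on both arrays. The members were split evenly, 5 above the all-gene median and 5 below. None was at least 1.5-fold higher, where 1.21% of all genes were, and 1, Osgin1, was at least 1.5-fold lower, where 4.83% were. Counted over the 14 probes, 0 were 1.5-fold higher and 1 was lower, against 1.44% and 5.91% of all detected probes. Among the 6426 genes at or above the median level, 0.28% were 1.5-fold higher and 0.98% lower. The 6 members there are Nfe2l2, Keap1, Hmox1, Gclc, Txnrd1 and Prdx1, and none reached 1.5-fold. Both counts for the members are small. Of the 10 genes, 5 lay above the third quartile of all genes (0.11) and 3 below the first (−0.18). The 5 include Nqo1 and Gclm, whose differences were within their spot errors. The 3 include Osgin1, whose other probe lay inside the quartiles. Of all genes past 1.5-fold, 20.1% were on the higher side. That share was 44.7% when each array was scaled to its median, 34.6% with quantile normalization, 39.0% with loess and 54.6% in the authors' value table.

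**Figure D1:**
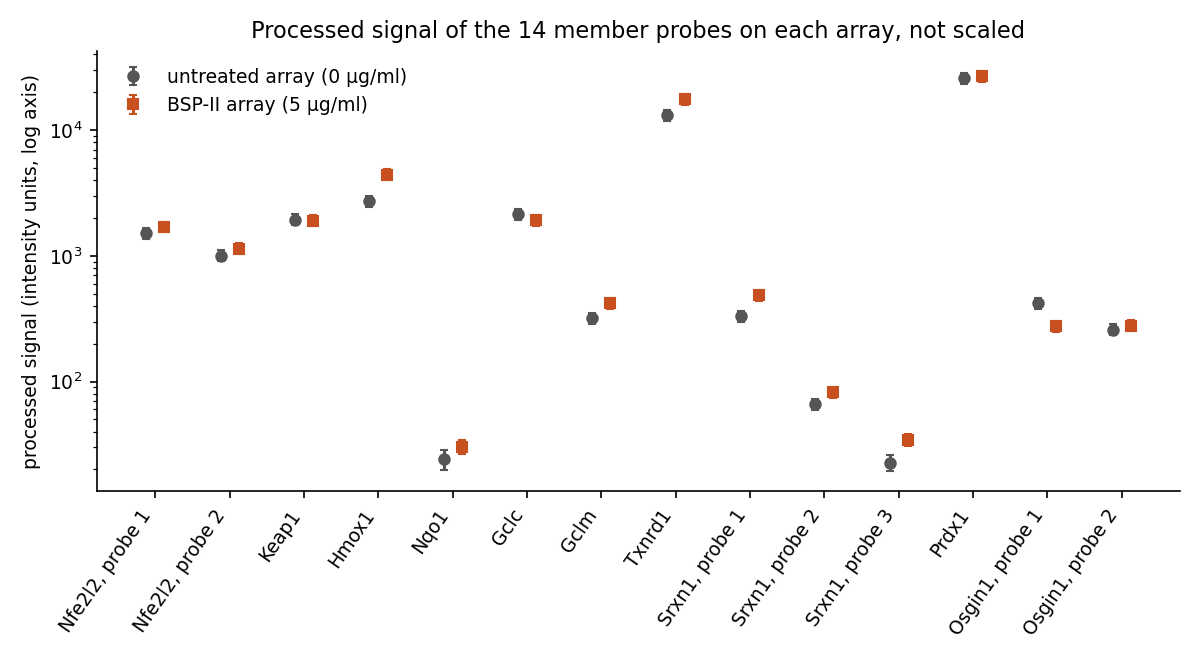
Processed signal (intensity units, log axis, before scaling) of each member probe on the untreated array (grey circles, 0 µg/ml) and the BSP-II array (orange squares, 5 µg/ml), with bars for the error given by the scanner software. The bars of the arrays stand apart, with BSP-II above, for Hmox1, Gclm, Txnrd1 and all 3 probes of Srxn1, and with BSP-II below for Osgin1 probe 1. The BSP-II array was brighter as a whole, with a 75th percentile of 356.3 against 309.1. After scaling, the differences of Gclm and of Srxn1 probe 2 were within their spot errors. Heights of different probes are not comparable.

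All 14 probes were well above background on both arrays, so that no member was lost to a filter on dim signals. The local background around their spots was 44.5 to 52.5 on the untreated array and 35.5 to 40.5 on the BSP-II array. None of the 14 spots (0) lay in a patch of deviating spots, which was called where 2 or more nearby spots (at most 3 rows and columns away) deviated 2-fold the same way. The median difference of the spots within 10 rows and columns lay between −0.13 and 0.00 around the member probes. The probes are spread over the array, 7 in the earlier and 7 in the later rows. Spots 2-fold lower with BSP-II were more frequent in the later rows, 249 against 59, and the first Osgin1 probe lies there.

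Nfe2l2 encodes the factor itself, and its RNA was nearly alike on the arrays. It had signals of 1516.9 ± 151.7 on the untreated and 1703.7 ± 170.4 on the BSP-II array at its first probe, and 1004.6 ± 100.5 and 1141.9 ± 114.2 at its second. The scaled differences were −0.04 ± 0.20 and −0.02 ± 0.20. They differed from each other by 0.02, where the 3189 genes with 2 detected probes had a median gap of 0.13. Both probes turned to positive values, 0.08 and 0.10, when the arrays were scaled to their medians, and 0.09 and 0.10 in the authors' value table, where the median gene was at 0.10 as well. Nfe2l2 thus lay within 0.05 of the median gene under each of the 8 other ways of processing that were applied to probes.

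Keap1, the adaptor that marks NRF2 for destruction, had signals of 1944.2 ± 194.4 untreated and 1907.4 ± 190.7 with BSP-II. The scaled difference was −0.23 ± 0.20, which is 1.17-fold lower. Only 7.86% of the genes at or above the median level were lower still. The value stayed below zero under all 8 other ways of processing, between −0.23 and −0.11. It was within its spot error with median scaling, in the authors' value table, without background subtraction, with normexp and after subtraction of local medians. The difference of Nfe2l2 minus that of Keap1 was 0.20 ± 0.29, less than its spot error.

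Hmox1 encodes haem oxygenase 1, which opens the haem ring and releases iron, biliverdin and carbon monoxide. Its signal was 2713.5 ± 271.4 without the peptide and 4419.6 ± 442.0 with it, a step beyond both spot errors. The scaled difference was 0.50 ± 0.20, or 1.41-fold higher, the largest positive value among the 14 probes. Of the 6426 genes at or above the median level, 99.5% had a lower difference. Hmox1 crossed 1.5-fold, a log2 difference of 0.585, when the arrays were scaled to their medians and in the authors' value table (0.62 in both). Relative to the median gene it was at 0.52, and between 0.51 and 0.57 under the other ways of processing.

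Hmox1 has 1 probe on the array, so no other probe bears on the value. Macrophages also carry much Hmox1. Of their 5 listed markers 4 had a probe, and their summed signal was 84.6 untreated and 160.8 with BSP-II. Adgre1 was at 0.17 from signals of 29.0 and 37.5, Lyz2 was not well above background on either array, and Itgam only on the BSP-II array. Csf1r was at 0.90 at its brightest probe, from signals of 48.4 and 104, and its other probe detected on both arrays gave −0.75. The part of such cells in the Hmox1 value was not tested.

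Of the other genes that handle haem and iron, most stayed near the middle. Hmox2, the constitutive haem oxygenase, was at −0.08, and biliverdin reductase Blvra at −0.02. The ferritin chains Fth1 and Ftl1, which store iron, were at −0.02 and 0.06. Fech, which inserts iron into haem, was at 0.22 (other probe 0.14) and the porphyrin transporter Abcb6 at 0.16. The iron exporter Slc40a1 was at −0.80, but with signals of 22.0 and 14.5 close to the floor of detection. It kept only −0.38 without background subtraction. Blvrb was detected on the BSP-II array alone, with signals of 10.6 and 15.0. The lowest signals counted as detected were 11.8 untreated and 7.66 with BSP-II. Its lower bound was 1.1-fold higher, which leaves out the spot error, and its difference of 0.30 ± 0.43 was within that error.

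Nqo1, the quinone reductase that is a common marker of NRF2 activity, was close to the background. Its signals were 24.1 ± 4.3 and 30.4 ± 3.7, where the lowest signals counted as well above background were 11.8 and 7.66. The scaled difference of 0.13 ± 0.31 was smaller than its spot error. It turned to −0.04 both without background subtraction and with the normexp correction. A difference as small as this was not detectable at this signal.

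Glutamate-cysteine ligase makes the first bond of glutathione and is built of a catalytic chain, Gclc, and a modifier chain, Gclm. The 2 chains lay on opposite sides. Gclc had signals of 2140.4 ± 214.1 untreated and 1929.7 ± 193.0 with BSP-II, and a scaled difference of −0.35 ± 0.20 (1.28-fold lower). Gclm had 318.8 ± 32.0 and 421.2 ± 42.2, and a scaled difference of 0.20 ± 0.20 (1.15-fold higher). Gclc was below zero and Gclm above zero under all 8 other ways of processing. Gclm minus Gclc was 0.55 ± 0.29 and ranged from 0.51 to 0.55 over those. This contrast does not depend on how the arrays are scaled by a constant. It describes unequal differences of the 2 chains on these 2 arrays, and does not say which of them differed. Its error leaves out the variation between cultures, so a change caused by the dose was not tested.

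The thioredoxin branch held 3 members. Txnrd1, the cytosolic selenoprotein that reduces thioredoxin with NADPH, had signals of 13094.3 ± 1309.4 and 17662.0 ± 1766.2. Its scaled difference was 0.23 ± 0.20 (1.17-fold higher), above that of 93.1% of the genes at or above the median level. It stayed between 0.23 and 0.35 under the other ways of processing.

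Srxn1 encodes sulfiredoxin, which restores peroxiredoxins that peroxide has overoxidised. Its 3 probes gave signals of 331.1 ± 33.2 and 489.4 ± 49.0, of 66.1 ± 7.0 and 82.5 ± 8.4, and of 22.7 ± 3.4 and 34.6 ± 3.8, untreated and BSP-II in turn. All 3 were brighter on the BSP-II array. The scaled differences were 0.36 ± 0.20, 0.11 ± 0.21 and 0.40 ± 0.27. The brightest probe, at 1.28-fold higher, exceeded 95.6% of all genes and kept 0.31 to 0.48 under the other ways of processing. The second turned to −0.02 with normexp, and the third, the dimmest, went down to 0.02 there. The gap between the probes, 0.29, was near the median of 0.25 for the 708 genes with 3 detected probes.

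Prdx1, the peroxiredoxin whose overoxidised form sulfiredoxin repairs, had nearly one signal on both arrays, 26026.0 ± 2602.6 and 26947.1 ± 2694.7. The scaled difference was −0.15 ± 0.20, within its spot error, and lay between −0.15 and −0.03 under the other ways of processing. Srxn1 minus Prdx1 was 0.51 ± 0.29, and Txnrd1 minus Prdx1 was 0.38 ± 0.29. Both contrasts kept their sign under all 8, from 0.39 to 0.54 and from 0.35 to 0.39. For some of these ways that was fixed in advance. Median scaling and the authors' value table shift both genes of a contrast alike, and leaving out clustered spots touched neither.

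Osgin1, an oxidative stress-induced growth inhibitor, was the one member past 1.5-fold, and its probes disagreed. The first had signals of 419.8 ± 42.1 untreated and 276.8 ± 27.7 with BSP-II, a scaled difference of −0.81 ± 0.20 (1.75-fold lower). The second had 259.1 ± 26.0 and 278.4 ± 27.9, a scaled difference of −0.10 ± 0.20. Where each probe lies in the transcript was not analysed here. The gap between them was 0.70, and 4.95% of the 3189 genes with 2 detected probes had one as large. After subtraction of the local median the first probe was at −0.77. It kept −0.81 to −0.68 under the other ways of processing, while the second turned to 0.02 with median scaling and in the authors' value table. With the median of the 2 probes in place of the brighter one, no member was 1.5-fold lower.

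**Figure D2:**
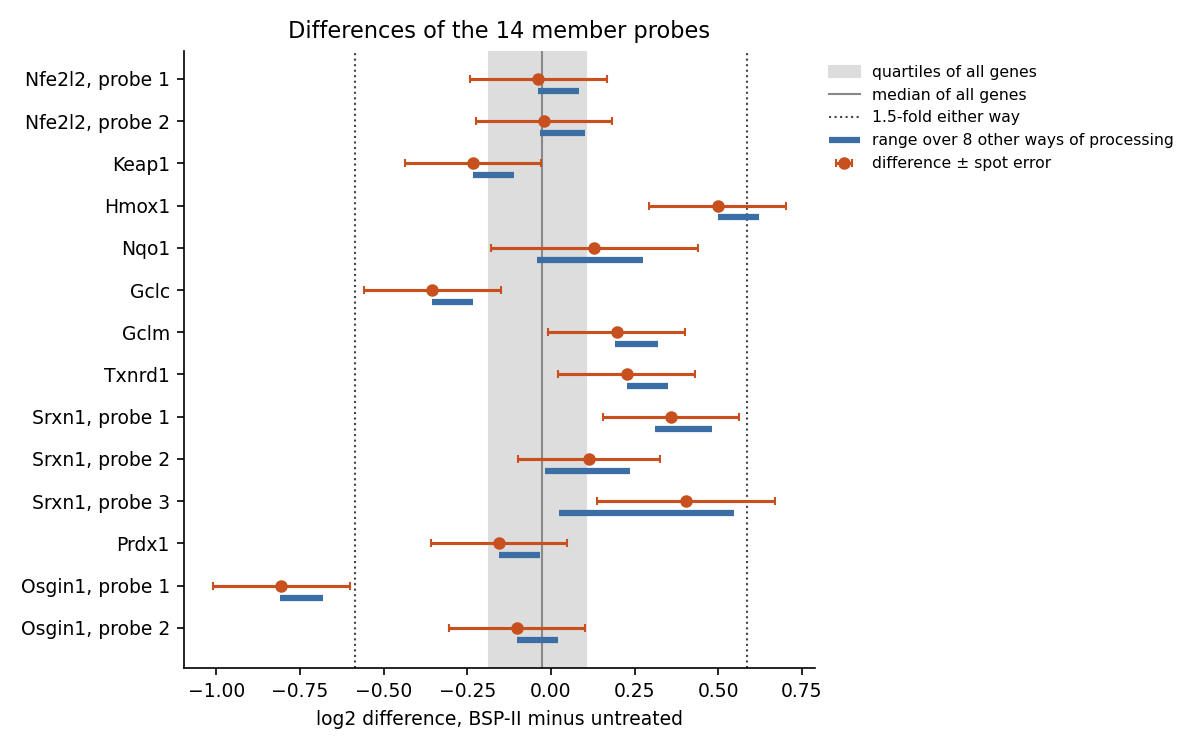
Log2 difference (BSP-II minus untreated) of each member probe with its spot error (orange), and the range of that value over the main and 8 other ways of processing (blue bars). The grey band spans the quartiles of all genes, −0.18 to 0.11, and the dotted lines mark 1.5-fold. Osgin1 probe 1 lies beyond the lower line at −0.81 and Hmox1, at 0.50, just short of the upper one.

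**Figure D3:**
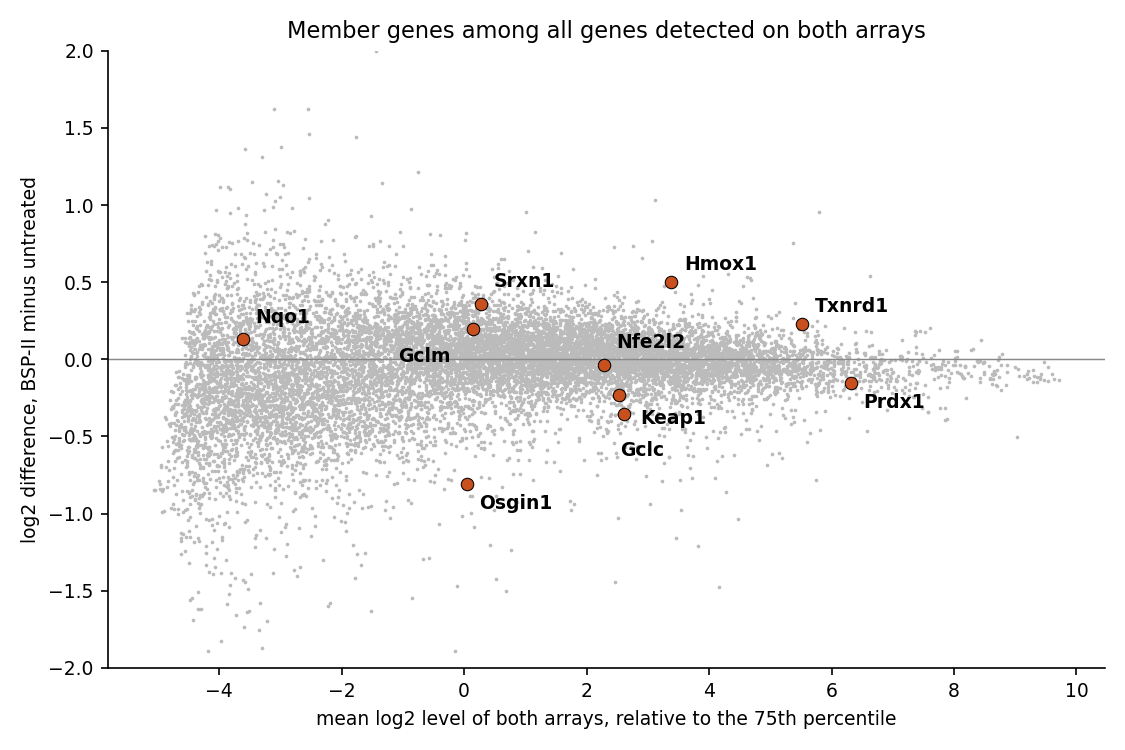
Log2 difference (BSP-II minus untreated) against mean log2 level of both arrays for the 12852 genes detected on both (grey), with the members at their brightest probes (orange). The scatter of all genes is wide at low levels, where Nqo1 lies, and narrow at high levels, where Hmox1 at 0.50 stands at the upper edge. The axis leaves out 15 genes that differ by more than 2 on the log2 scale.

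The other genes of the pathway were taken from a list of 121 genes in 8 groups by role, without the members. Of these, 104 were detected on both arrays, 2 on the BSP-II array alone, 0 on the untreated array alone, 10 on neither, and 5 had no named probe. Of all 17302 named genes, 967 were detected on the BSP-II array alone and 73 on the untreated array alone. The median difference of the 104 pathway genes was 0.02, and 66 of them (63.5%) lay above the median of all genes. Many are bright, and among all genes at or above the median level that share was 56.4%. At least 1.5-fold higher were 2 of the 104, Maff and Idh1, and 2 were lower, Slc40a1 and Nox4, where 1.21% and 4.83% of all genes were. The higher count was 5 with median scaling, and without background subtraction both counts were 0. All 4 are dim genes, and none was 2-fold different.

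Among the regulators of NRF2, 10 of 14 genes lay above the median of all genes, with a group median of 0.10. The group median was 0.04 with normexp, and 0.02 when each gene was taken at the median of its probes. Maff, a small MAF protein of the kind NRF2 pairs with, was highest at 0.62 ± 0.22, from signals of 49.3 and 87.1, but at 0.21 with normexp. Mafg, of the same family, was at 0.25 and Mafk at −0.23. Bach1, a repressor that competes with NRF2 at its elements and also holds down Hmox1, was lowest, at −0.51 ± 0.21 from signals of 126 and 102. It stayed at or below −0.39 under all ways of processing. Btrc, a ligase adaptor that marks NRF2 by a route other than KEAP1, was at 0.41 from a dim probe that gave 0.02 with normexp. Sqstm1, the autophagy receptor p62 that binds KEAP1, was at 0.20, and the ligase scaffold Cul3 at −0.04.

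The enzymes of glutathione were spread around the middle, with 16 of 27 above the median of all genes and a group median of −0.02. The count was 13 of 27 with quantile normalization and 13 of 26 in the authors' value table. Chac1, which degrades glutathione, was highest at 0.54 ± 0.20 from bright signals of 3840 and 6430. Mgst1, a membrane-bound glutathione transferase, was lowest at −0.47, with −0.08 at its other probe. Oplah, which returns oxoproline to glutamate, was at 0.43 within a patch of deviating spots, from dim signals of 25.2 and 39.3 and at 0.02 with normexp. Gsr, the enzyme that reduces glutathione, gave −0.02 at its brightest probe and 0.26 and 0.39 at its other probes. The cystine carrier Slc7a11 was dim, with signals of 33.3 and 40.4, and was at 0.08.

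In the thioredoxin and peroxiredoxin group 12 of 15 genes lay above the all-gene median. The group median was 0.04. Thioredoxin itself, Txn1, was at 0.04, and the peroxiredoxins Prdx2 to Prdx6 ranged from −0.13 to 0.05. Txnip, which binds thioredoxin and blocks it, had the highest value when each gene is taken at its brightest probe, 0.54 ± 0.20 from signals of 6290 and 10500. Its other probe gave 0.58 ± 0.20, and both stayed at or above 0.52 under all ways of processing. Nxn, nucleoredoxin, of the thioredoxin family, gave 0.19 ± 0.20 at its brightest probe and 0.56 ± 0.20 at the other, whose signals were 598 and 1010. The sestrins, stress proteins that act on mTORC1, went both ways, with Sesn3 at 0.31, Sesn1 at −0.07 and Sesn2 at −0.43.

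All 8 measured genes that supply NADPH lay above the median of all genes, with a group median of 0.07, and they did so under each of the 8 ways of processing applied to probes. Me1, malic enzyme, had signals of 625 and 980 and a difference of 0.45 ± 0.20. Idh1, the cytosolic isocitrate dehydrogenase, was at 0.60 ± 0.21 from signals of 100 and 175, but at 0.41 with normexp and short of 1.5-fold without background subtraction too. The other 6, among them Pgd (0.16) and G6pdx (0.07) of the pentose phosphate pathway, were at 0.16 or less. Except for Me1 and Idh1, each was within its spot error of zero.

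Enzymes against superoxide, peroxide and oxidised methionine had a group median of −0.07, with 2 of 8 genes above the median of all genes. That count was not stable, with 4 under quantile normalization, 5 with normexp and 1 of 7 with clustered spots left out. The superoxide dismutases Sod1 and Sod2 were at −0.05 and −0.06 and catalase, Cat, at 0.14. The methionine sulfoxide reductases were at −0.45 (Msrb3, near background), −0.30 (Msra), −0.14 (Msrb2) and 0.19 (Msrb1). Detoxifying enzymes and exporters had a median of 0.01, with 8 of 14 genes above the median of all genes. Aldh1a1, which oxidises retinal, was at 0.55 from dim signals of 69.7 and 118, Ptgr1, a prostaglandin reductase, at −0.42 and the aldo-keto reductase Akr1b8 at −0.38. Of the genes that produce oxidants, 5 of 9 lay above the median. The NADPH oxidase chains Nox4 and Cybb were at −0.72 (in a patch of deviating spots) and −0.47, both near background.

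**Figure D4:**
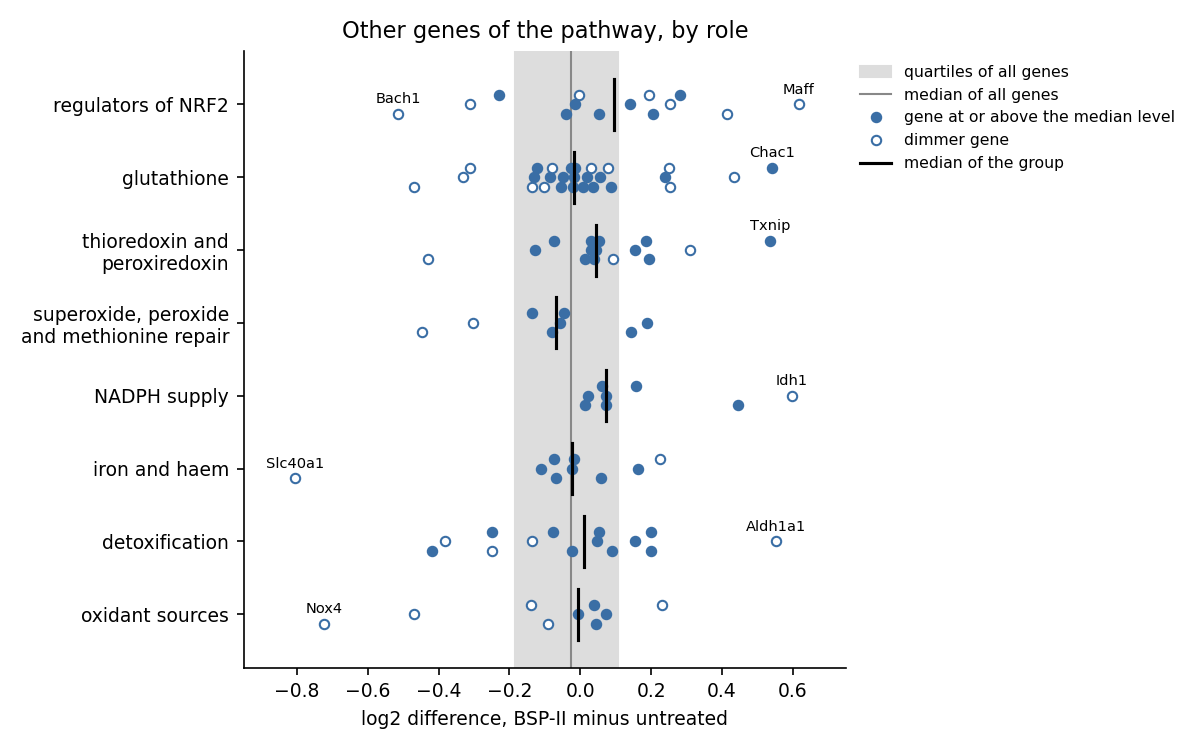
Log2 difference (BSP-II minus untreated) of the 104 other pathway genes detected on both arrays, by role, with filled points for genes at or above the median level and a bar at the median of each group. The grey band spans the quartiles of all genes, −0.18 to 0.11, and all group medians, from −0.07 to 0.10, lie inside it.

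The labelled cell type was checked with marker genes. All 11 markers of B and plasma cells were detected on both arrays, 9 of them at or above the median level of all genes, and their median difference was −0.16. Markers of T cells, macrophages, fibroblasts and erythroid cells were dim, and none reached the median level. The arrays held 45018 spots each and no gene spot was saturated. The number of probes well above background was 24674 untreated and 27272 with BSP-II. In bulk RNA such as this, fewer cells of a type and less RNA per cell cannot be told apart.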

How the data were processed

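RNA of 2 cultures was hybridised to Agilent single-colour arrays, 1 per dose. The submitters' processing notes name Agilent Feature Extraction 10.5.1.1. Per the file headers, each spot has intensity values as deposited for its median brightness, for the background around it, and for a background-subtracted processed signal with an error. The authors' deposited value table is on a log2 scale. Against the log2 processed signals, 99.3% of its 23296 probes were shifted by one fixed amount per array, −4.85 and −4.94, within 0.0001. Its column medians are 2.88 and 2.99, and the basis of the centring is unknown here.

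Log2 processed signals were reduced by each array's 75th percentile. Control spots and 189 spots flagged as outliers were left out, and repeat spots were averaged. Probes were named by unversioned RefSeq accession (assembly GRCm38.p6, names and promoter windows only, since the file headers name mm9). Of the gene probes 61.0% were named and 16072 were not. A gene stands for its brightest probe. A probe was detected when all its spots were well above background. Errors of a difference combine the relative spot errors of both arrays. A lower bound divides the brighter signal by the higher of the probe's own dim signal and the lowest signal well above background there, after scaling.

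According to the series design there were 2 independent experiments; both samples analysed here are numbered replicate 1. The number of arrays limits the precision, and genes were called only by a fold threshold, 1.5-fold or 2-fold, without a test.

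The members and lists were chosen with earlier results of these data known. Named beside the members were the 3 genes of each group with the largest difference, those past 1.5-fold, and, chosen after their values were seen, further enzymes of each branch. One gene that the rule names is not reported here. Alternatives were median, quantile and loess scaling (span 0.3), the value table, no background subtraction, normexp (offset 50, on median signals), subtraction of local medians (10 rows and columns), leaving out clustered spots, the median over probes, no filter on dim probes, brighter genes only, and 2-fold. The steps were tested on simulated data. Python 3.11.15, numpy 2.4.6, pandas 2.3.3, statsmodels 0.14.6, matplotlib 3.10.9, R 4.3.3 and limma 3.58.1 were used.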

Additional observations from a re-analysis of the deposited data

How the results depend on the processing

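Of 112 values of member probes under 8 alternatives, 110 moved by less than the spot error. The 2 values that moved further were those of the dimmest Srxn1 probe, at 0.09 without background subtraction and 0.02 with normexp. A change of sign was counted only for probes past 1.5-fold, here the first Osgin1 probe, which kept its sign. Both Nfe2l2 probes, Nqo1, the second Osgin1 probe and the second Srxn1 probe changed sign under some alternatives. Part of this stability was fixed in advance. Leaving out clustered spots could not change a member value, since no member spot was clustered. Median scaling and the authors' value table shift the member values by a constant below the smallest spot error, 0.204. The local medians that were subtracted lay between −0.13 and 0.00, also smaller in size than that error. The median of the members minus that of all genes stayed between −0.0048 and 0.10 except among the brighter genes, where it was −0.09 over 6 members and 2 of them lay above the median. The members' median itself was below zero there (−0.10), without background subtraction (−0.04) and with normexp (−0.03). Counts of all genes at least 1.5-fold higher and lower, 156 and 621, were 307 and 380 with median scaling, 245 and 384 with loess, and 307 and 255 in the authors' value table. They were 33 and 167 without background subtraction, 33 and 148 with normexp, 681 and 2724 with no filter on dim probes, 18 and 63 among the brighter genes, and 26 and 129 at 2-fold. The last 3 differ because other genes were counted or the threshold was set higher. Median scaling added 0.12 to every difference, which by itself raises the higher count and reduces the lower. The authors' value table shifts nearly all differences likewise and covers 12403 genes in place of 12852. For the others the cause was not tested. Signal over background limits Nqo1 and the dimmer Srxn1 probes. No replicate could be left out. No paired analysis was possible because each dose has 1 array.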
